A study of Mus musculus with 2 samples.

Results

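A set of 8 genes tied to the passage of endothelium into a mesenchymal state were followed through every cell class of the embryonic aorta in an SP3-null and a wild-type library. The 8 genes, of 27514 in the count matrix, were chosen by name: the transcription factors Snai1, Snai2, Zeb1, Zeb2 and Twist1, the intermediate filament gene Vim, the cadherin gene Cdh2 and the ligand gene Tgfb2. Each name was found once. All 8 were measured, although Twist1 and, late in the trajectory, Snai1 and Snai2 rested on few molecules.

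Endothelial to mesenchymal transition (EndMT) is the process by which endothelial cells loosen their junctions and take on features of mesenchyme, as in the cushions of the developing heart. SNAI1 and SNAI2 are zinc finger repressors, ZEB1 and ZEB2 are zinc finger and homeodomain repressors, and TWIST1 is a basic helix-loop-helix factor. Many targets of these factors carry an E-box, the site CACCTG. TGFB2 is a secreted ligand that induces the transition in cushion endothelium. Vimentin and N-cadherin, the product of Cdh2, are used as mesenchymal markers in epithelium, but endothelium makes both without any transition. Endothelial to hematopoietic transition (EHT), in which aortic endothelium gives rise to blood cells, also ends in the loss of endothelial junctions.

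The data are single-cell RNA-seq of endothelium sorted from the dorsal aorta of mouse embryos at embryonic day 10.5, with antibodies to Ter119, ESAM, CD41, CD144 (the product of Cdh5) and CD31. The SP3-null embryos were homozygous for the mutant allele of the B6.129P2-Sp3tm1Sus/Cnrm line, the wild-type embryos carried no mutant allele, and both came from matings of heterozygous parents on a C57Bl6/J x B6129SF1/J background. The mutation was present in every tissue of the embryo, and cells of embryos of the same genotype were pooled into 1 library per genotype. Genotype, pool of embryos and library therefore cannot be told apart. No difference between the libraries has a replicate check, and no test was made. The intervals given are 95% intervals from counting, and they cover counting error only.

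The SP3-null library held 3954 cells with a median of 15638.5 unique molecular identifiers (UMIs, each standing for 1 captured transcript), and the wild-type library 4451 cells with a median of 14664 UMIs. Both libraries shared 5 barcode sequences. The authors' classes were used: arterial endothelium (AE) with low or high expression of Wnt targets, conflux AE, pre-hemogenic endothelium (pre-HE), hemogenic endothelium (HE), cells of the intra-aortic clusters (IAC), venous endothelium (VE), again Wnt-low or Wnt-high, and other endothelium. The deposited table holds more AE cells than the study lists for its arterial population, 922 SP3-null and 939 wild-type, and the reason was not found. AE is the class that folds are set against. All 9 classes held at least 30 cells in each library, the smallest being HE with 40 SP3-null and 59 wild-type cells. Class medians ran between 8850 UMIs in SP3-null conflux AE and 31009 UMIs in wild-type IAC. Marker lists set IAC apart from pre-HE, while the AE, VE and Wnt names were not checked against markers: in IAC 8 hematopoietic cluster markers summed to 990 CPM in SP3-null and 947 CPM in wild-type, and 9 endothelial markers to 480 and 486 CPM, against 50.5 and 41.6 CPM and 5199 and 4656 CPM for the same lists in pre-HE. CPM are UMIs per 1000000 UMIs of a class. Sp3 itself stood at 36.4 CPM in the SP3-null and 47.6 CPM in the wild-type library, but no source used here states what the allele removes from the 3' end that was read, and this level therefore does not check the labels. Because a class was assigned to a cell from its expression, levels along the classes are a description.

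The promoters of 3 members are shown first, because they carry the 2 motifs that bear on this gene set and this mutant: the E-box CACCTG, bound by SNAI and ZEB factors, and the GC box GGGCGG, bound by SP factors including SP3. The window searched, on both strands, ran from 250 bases before to 50 bases after each RefSeq start site (GRCm38.p6). A GC box was present in 35.7% of 32851 such windows over all genes, and a CACCTG in 20.2%. Windows of 5 of the 8 genes were read, for Snai1, Zeb2, Twist1, Vim and Tgfb2. Neither motif was in the windows of Vim or Tgfb2. The 250 bases before each start are given 5′ to 3′ on the strand of the gene, with the motif on either strand in capitals. The E-box of Snai1 begins 126 bases before its start, the GC box of Zeb2 29 bases before the innermost of 4 annotated starts, and that of Twist1, on the other strand, 62 bases before its start.
Snai1 (chr2:167537945-167538194, plus strand): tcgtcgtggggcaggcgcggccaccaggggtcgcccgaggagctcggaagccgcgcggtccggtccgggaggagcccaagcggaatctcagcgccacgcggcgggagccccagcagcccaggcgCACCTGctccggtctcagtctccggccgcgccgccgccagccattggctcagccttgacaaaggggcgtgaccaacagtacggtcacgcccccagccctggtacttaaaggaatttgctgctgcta
Zeb2 (chr2:45110278-45110527, minus strand, inside the gene): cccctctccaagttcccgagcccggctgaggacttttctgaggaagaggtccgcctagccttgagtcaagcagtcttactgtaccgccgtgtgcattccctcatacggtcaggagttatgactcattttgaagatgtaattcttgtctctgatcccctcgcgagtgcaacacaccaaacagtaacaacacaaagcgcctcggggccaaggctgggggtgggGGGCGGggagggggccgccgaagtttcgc
Twist1 (chr12:33957421-33957670, plus strand): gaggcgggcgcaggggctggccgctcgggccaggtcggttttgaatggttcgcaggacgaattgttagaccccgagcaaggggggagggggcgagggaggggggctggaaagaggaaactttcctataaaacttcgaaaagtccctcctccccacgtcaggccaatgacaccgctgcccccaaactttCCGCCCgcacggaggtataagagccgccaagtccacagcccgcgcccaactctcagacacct
Of the 4 Zeb2 starts, 3 held a GC box and the outermost held neither motif. The windows of 2 of those 3 overlapped and shared the same site, 122 and 148 bases before their starts. Over all genes, 38.2% held a GC box in any of their windows. A match of letters is a description of sequence and not a binding site.

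The largest pattern lay along the trajectory and was the same in both libraries: Zeb2 was highest in HE, while Snai1, Snai2, Zeb1, Cdh2, Tgfb2 and Vim were lower in IAC than in AE. In the plot of levels by class, IAC is the lowest of the 9 classes for Snai1, Zeb1, Vim, Cdh2 and Tgfb2 in each library. For Snai2 it is the lowest in wild-type, while in SP3-null no Snai2 UMI was found in either HE or IAC.

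**Figure D1:**
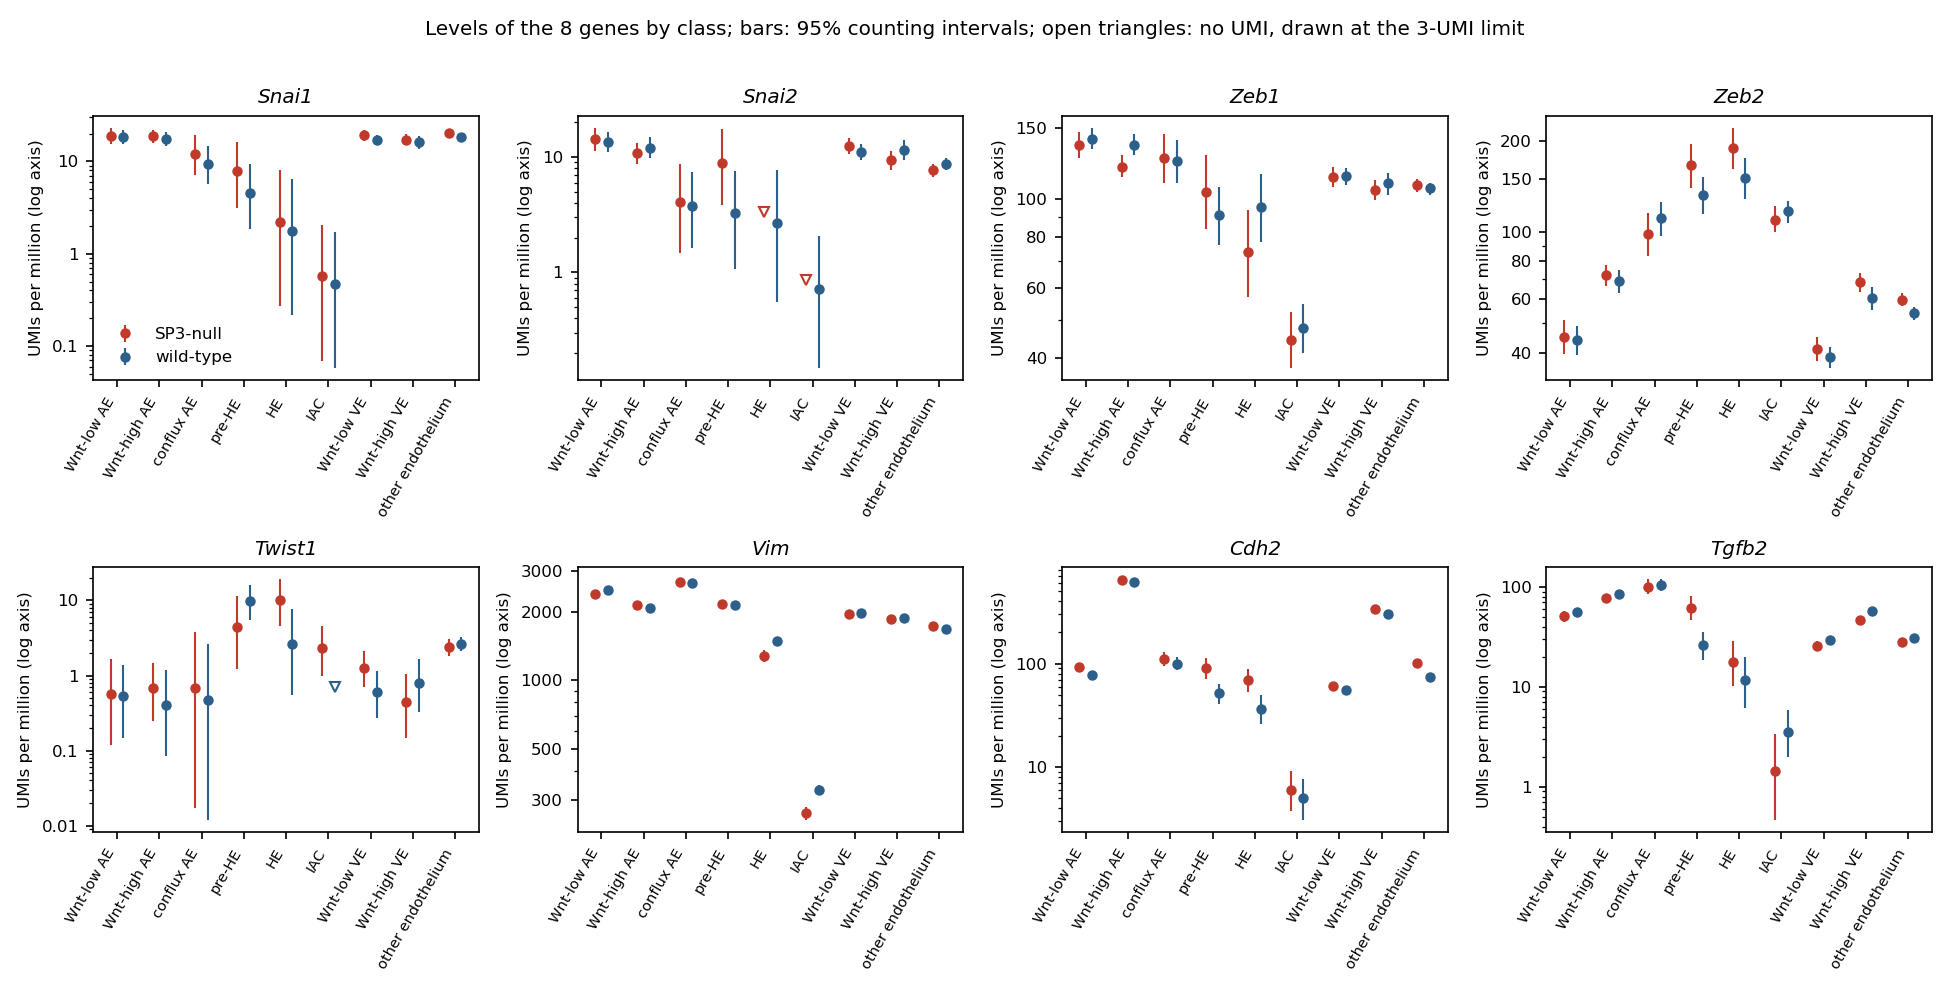
Levels of the 8 genes, in CPM on a log axis, in the 9 classes, with SP3-null to the left of wild-type in each pair. Bars are 95% Poisson intervals, and open triangles mark classes with no UMI, drawn at the level of 3 UMIs. Vim lay between 1274 and 2682 CPM outside IAC and at 261 and 331 CPM in IAC, while Zeb2 was highest in HE, at 190 and 151 CPM.

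Snai1 (ENSMUSG00000042821, chromosome 2, 167538195 to 167542814) and Snai2 (ENSMUSG00000022676, chromosome 16, 14705852 to 14709395) were low but present in arterial and venous endothelium. Snai1 had 19.0 CPM in SP3-null and 18.4 CPM in wild-type Wnt-low AE, 18.6 and 17.5 CPM in Wnt-high AE, 19.3 and 17.2 CPM in Wnt-low VE, 17.2 and 16.0 CPM in Wnt-high VE, and 20.1 and 18.5 CPM in other endothelium. The contrasts between these 5 classes (Wnt-high over Wnt-low, VE over AE and other endothelium over AE) all had intervals that included 0. Conflux AE followed with 12.1 CPM in SP3-null and 9.39 CPM in wild-type, and pre-HE with 7.86 and 4.55 CPM from 7 UMIs each. In HE and in IAC each library held 2 Snai1 UMIs, or 2.23 CPM in SP3-null and 1.78 CPM in wild-type HE, and 0.574 CPM and 0.474 CPM in SP3-null and wild-type IAC. Against AE, which from here on means both its Wnt-low and its Wnt-high class, IAC was 32.6-fold lower in SP3-null (log2 -5.03, -8.08 to -3.16) and 37.8-fold lower in wild-type (log2 -5.24, -8.29 to -3.37).

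Snai2 had 14.4 and 13.5 CPM in SP3-null and wild-type Wnt-low AE, and 4.05 and 3.76 CPM in conflux AE, 3.01-fold and 3.42-fold below AE. It was thus already low in conflux AE, and stood at 8.98 and 3.25 CPM in pre-HE from 8 and 5 UMIs. In HE and IAC the SP3-null library held 0 UMIs and the wild-type library 3 UMIs in each class. In SP3-null the intervals of the log2 ratio to AE reached up to -3.51 in IAC and up to -1.55 in HE. A count of 3 UMIs there would have been 14.1-fold below AE in IAC and 3.63-fold in HE. Wild-type IAC, with 3 UMIs, was 18-fold lower (log2 -4.17, -6.46 to -2.6). Snai2 made up 39.4% of the UMIs of the pair in SP3-null AE and 41.7% in wild-type AE, and 27.7% and 32.1% in other endothelium. In other endothelium Snai2 lay below AE by 1.58-fold in SP3-null and 1.47-fold in wild-type, with both intervals below 0, while Snai1 there was level with AE (log2 0.1, -0.11 to 0.32, and 0.05, -0.17 to 0.26).

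Few cells held both Snai genes. When each cell was thinned to 5000 UMIs, so that depth was equal, Snai1 was seen in 0 of 103 SP3-null and 0 of 126 wild-type IAC cells, against 7.68% of 794 and 8.82% of 782 AE cells. The counts of 0 allow shares of up to 3.52% in SP3-null and 2.89% in wild-type IAC (upper Clopper-Pearson limits). Before thinning, 1.87% of SP3-null and 0.781% of wild-type IAC cells had a Snai1 UMI at medians of 30343 and 31009 UMIs per cell, against 21.7% and 21.4% of AE cells at medians of 13756.5 and 13395 UMIs. Both Snai1 and Snai2 were seen in 7 thinned SP3-null and 6 thinned wild-type AE cells, where the product of the 2 shares gives 3.61 and 4.85 cells. In VE the libraries differed, with 7 cells against 4.63 in SP3-null and 0 against 3.63 in wild-type.

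Zeb1 and Zeb2 went opposite ways between AE and HE, and both were lower in IAC than in HE. Zeb1 (ENSMUSG00000024238, chromosome 18, 5591327 to 5775468) was highest in Wnt-low AE, with 136 CPM in SP3-null and 141 CPM in wild-type. It held 126 and 124 CPM in conflux AE, 104 and 91.1 CPM in pre-HE, 73.7 and 95.1 CPM in HE, and in IAC 44.5 and 47.7 CPM. Venous classes and other endothelium lay between 105 and 114 CPM. IAC was 2.83-fold below AE in SP3-null (log2 -1.5, -1.75 to -1.27) and 2.91-fold in wild-type (log2 -1.54, -1.76 to -1.33).

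Zeb2 (ENSMUSG00000026872, chromosome 2, 44983512 to 45117442) had 45.1 CPM in SP3-null and 43.9 CPM in wild-type Wnt-low AE, 72.1 and 68.7 CPM in Wnt-high AE, 98.4 and 111 CPM in conflux AE, 166 and 133 CPM in pre-HE, 190 and 151 CPM in HE, and in IAC 110 and 117 CPM. The steps between Wnt-low AE, Wnt-high AE and conflux AE were larger than counting error in both libraries, the step to pre-HE only in SP3-null, and pre-HE and HE did not differ beyond counting error in either (log2 0.19, -0.13 to 0.52 in SP3-null, and 0.19, -0.12 to 0.49 in wild-type). At equal depth the step from conflux AE to pre-HE was log2 0.18 in each library. HE stood 3.06-fold above AE in SP3-null (log2 1.61, 1.37 to 1.85) and 2.69-fold in wild-type (log2 1.43, 1.18 to 1.67). IAC stood 1.78-fold and 2.07-fold above AE, and below HE by log2 -0.78 (-1.04 to -0.51) in SP3-null and -0.37 (-0.63 to -0.11) in wild-type. At that depth the log2 ratio of HE over AE was 1.47 in SP3-null and 1.38 in wild-type.

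The share of Zeb2 in the UMIs of the Zeb pair gives this exchange within a class without any scaling. In Wnt-low AE Zeb2 made up 25% (22.3% to 27.8%) in SP3-null and 23.7% (21.5% to 26.1%) in wild-type. Wnt-high AE had 37.4% and 33.5%, conflux AE 43.8% (38.4% to 49.4%) and 47.2% (42.8% to 51.7%), and pre-HE 61.4% and 59.3%. The share thus passed 50% between conflux AE and pre-HE, but the wild-type conflux AE interval included 50%. At equal depth the crossing was smaller. Zeb2 and Zeb1 then had 71 and 72 UMIs in SP3-null and 75 and 79 in wild-type conflux AE. In pre-HE they had 56 and 42 in SP3-null and 62 and 57 in wild-type. HE had 72.0% (65.8% to 77.7%) in SP3-null and 61.4% (55.4% to 67.1%) in wild-type, and IAC 71.3% and 71.0%. The share also separated Wnt-high from Wnt-low cells in the vein, at 39.4% and 35.7% in Wnt-high VE against 26.6% and 25.3% in Wnt-low VE. Without the 3 cells richest in the pair, each of the 18 shares stayed inside its interval. In single HE cells thinned to 5000 UMIs, 22 of 36 SP3-null cells held Zeb2 but not Zeb1, 6 held Zeb1 but not Zeb2 and 2 held both. In wild-type HE these were 17, 7 and 7 of 55 cells. The product of the 2 shares gives 5.33 SP3-null and 6.11 wild-type cells with both, and at this depth a missing UMI does not show absence.

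**Figure D2:**
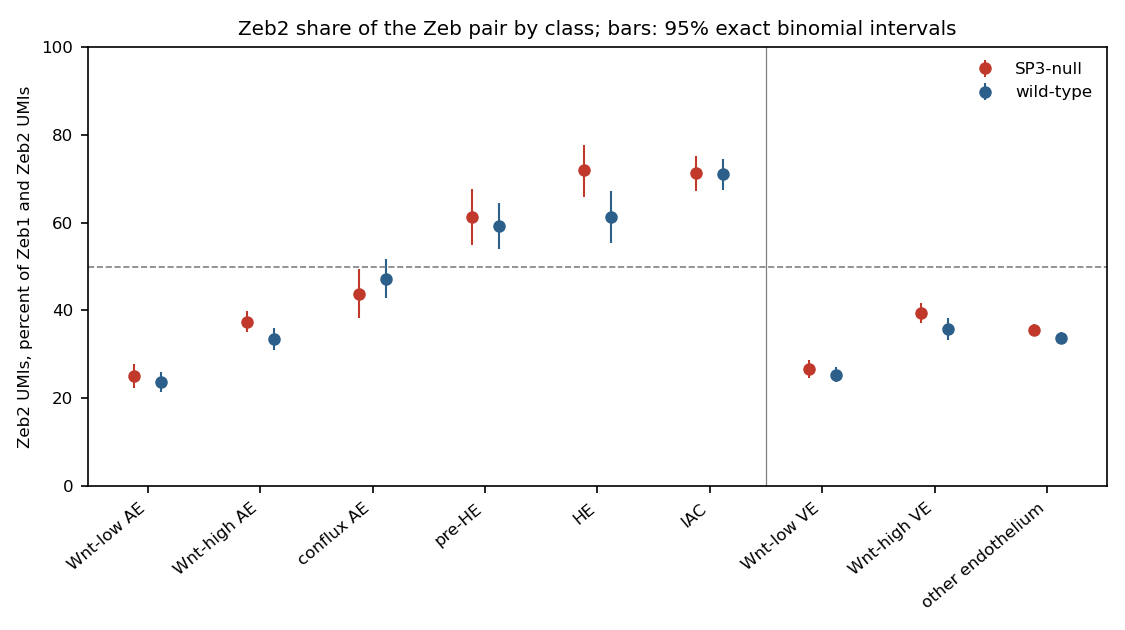
Zeb2 UMIs as a percent of Zeb1 and Zeb2 UMIs in each class, SP3-null to the left of wild-type, with 95% exact binomial intervals and a dashed line at 50 percent. The share is 25% and 23.7% in Wnt-low AE and 71.3% and 71.0% in IAC. It crosses the line between conflux AE and pre-HE in both libraries, with the wild-type conflux AE interval reaching across the line.

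IAC in both libraries held cells with macrophage transcripts, and ZEB2 is also a factor of macrophages. All 9 macrophage markers were found in IAC, at 368 CPM in SP3-null and 276 CPM in wild-type, against 6.7 and 35.6 CPM in HE, where Zeb2 was highest. In HE these UMIs were mostly of 1 marker, Lyve1, with 6 of 6 in SP3-null and 35 of 40 in wild-type. Zeb2 stood at 100 CPM in the 46 SP3-null IAC cells with 2 or more macrophage UMIs and at 121 CPM in the other 61. In wild-type it stood at 130 CPM in 58 such cells and at 102 CPM in the other 70. Without those cells, IAC stood above AE by log2 0.96 in SP3-null and 0.86 in wild-type.

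Twist1 (ENSMUSG00000035799, chromosome 12, 33957671 to 33959831) was nearly absent, with 116 UMIs in 91 of 3954 SP3-null cells and 126 UMIs in 99 of 4451 wild-type cells. Other endothelium held most of these UMIs, 65 in SP3-null and 84 in wild-type, at 2.38 and 2.63 CPM. AE had 0.636 CPM in SP3-null and 0.475 CPM in wild-type from 9 and 7 UMIs, and VE 0.873 and 0.675 CPM from 20 and 16. Pre-HE had 4.49 CPM in SP3-null and 9.76 CPM in wild-type from 4 and 15 UMIs, HE 10.0 and 2.67 CPM from 9 and 3, and IAC 2.3 and 0 CPM from 8 and 0. In SP3-null HE the 9 UMIs were in 2 cells, and in IAC the 8 UMIs were in 4 cells. In wild-type IAC, with 0 UMIs, a count of 3 UMIs would have been 0.712 CPM. Pre-HE stood above AE in both libraries (log2 2.82, 0.67 to 4.66, in SP3-null and 4.36, 2.98 to 5.89, in wild-type), and so did other endothelium (log2 1.9, 0.89 to 3.09, and 2.47, 1.36 to 3.83). HE stood above AE beyond counting error in SP3-null only, where 2 cells carried it (log2 3.98, 2.47 to 5.49).

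In sums over cells, Twist1 went with transcripts of mesenchyme in other endothelium. There the 13 mesenchyme markers, led by Col3a1, summed to 31.1 CPM in the 54 SP3-null cells with a Twist1 UMI and 5.32 CPM in the 1352 cells without one (log2 2.55, 2.02 to 3.05). In wild-type they summed to 16.0 CPM in 65 cells and 5.32 CPM in 1559 cells (log2 1.59, 0.98 to 2.16). Most cells with Twist1 held few such UMIs: 8 of the 54 SP3-null and 7 of the 65 wild-type cells had 2 or more. The cells with Twist1 were deeper, with medians of 23479 against 16924 UMIs in SP3-null and 27110 against 16491 UMIs in wild-type. Their endothelial markers were as high as in the cells without it, at 2559 against 2422 CPM in SP3-null and 2524 against 2407 CPM in wild-type. Mesenchyme UMIs were rare throughout, with 2 or more in 68 of 3954 SP3-null and 60 of 4451 wild-type cells, and the part of doublets in this pattern was not tested.

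Vim (ENSMUSG00000026728, chromosome 2, 13574311 to 13582826) was the most abundant member and was an endothelial transcript here. SP3-null and wild-type levels were 2393 and 2481 CPM in Wnt-low AE, 2137 and 2081 CPM in Wnt-high AE, 2682 and 2679 CPM in conflux AE, 2156 and 2133 CPM in pre-HE, 1950 and 1966 CPM in Wnt-low VE, 1855 and 1876 CPM in Wnt-high VE, and 1721 and 1680 CPM in other endothelium. Conflux AE was thus highest, 1.2-fold above AE in SP3-null and 1.17-fold in wild-type, beyond counting error. HE had 1274 and 1481 CPM. IAC had 261 and 331 CPM, which is 8.57-fold below AE in SP3-null (log2 -3.1, -3.2 to -3.0) and 6.9-fold in wild-type (log2 -2.79, -2.86 to -2.71).

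Most of that drop fell between HE and IAC, where Vim was 4.89-fold lower in SP3-null and 4.48-fold lower in wild-type. At 5000 UMIs per cell the median cell held 11 Vim UMIs in Wnt-low AE and 13 in conflux AE in both libraries, 7 and 8 in SP3-null and wild-type HE, and 1 in IAC in both. No Vim UMI was left in 45.6% of SP3-null and 27.8% of wild-type thinned IAC cells. IAC cells that still held a UMI of Cdh5, the gene of VE-cadherin, had 322 CPM of Vim in SP3-null (79 cells) and 385 CPM in wild-type (98 cells). IAC cells with no Cdh5 UMI had 95.1 CPM in SP3-null (28 cells) and 174 CPM in wild-type (30 cells).

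Cdh2 (ENSMUSG00000024304, chromosome 18, 16588877 to 16809246) marked the Wnt-high classes. It had 635 CPM in SP3-null and 612 CPM in wild-type Wnt-high AE, against 92.7 and 77.9 CPM in Wnt-low AE, a 6.84-fold and 7.85-fold difference (log2 2.77, 2.64 to 2.91, and 2.97, 2.85 to 3.1). In the vein it had 338 and 304 CPM in Wnt-high VE, against 61.4 and 56.1 CPM in Wnt-low VE, a 5.5-fold and 5.43-fold difference. Among genes with at least 50 UMIs, 2.31% were at least 2-fold higher in Wnt-high than Wnt-low AE in both libraries, and 1.31% in the vein. Cdh2 was the 1 of the 7 members tested that passed in each, Twist1 having too few UMIs. Zeb2 and Tgfb2 were also higher in Wnt-high cells, by less. Zeb2 was 1.6-fold and 1.56-fold higher in the artery and 1.66-fold and 1.57-fold in the vein, and Tgfb2 was 1.53-fold and 1.52-fold higher in the artery and 1.86-fold and 1.95-fold in the vein. Snai1 and Zeb1 lay within 1.13-fold between these classes.

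At equal depth 90.7% of SP3-null and 88.7% of wild-type Wnt-high AE cells held a Cdh2 UMI, with a median of 3 per cell. In Wnt-low AE these were 33.6% and 28.7%, and in IAC 0.971% and 1.59%. Before thinning the shares were 98.1% and 97.4% in Wnt-high AE, 55.2% and 57.2% in Wnt-low AE, and 11.2% and 12.5% in IAC. Arterial levels exceeded venous ones, by 2.21-fold in SP3-null and 2.34-fold in wild-type over the Wnt-low and Wnt-high classes together. From AE, Cdh2 was 3.91-fold and 3.42-fold lower in conflux AE, 6.25-fold and 9.43-fold lower in HE, and 71.8-fold and 69.0-fold lower in IAC, where each library held 21 UMIs at 6.03 and 4.98 CPM.

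Tgfb2 (ENSMUSG00000039239, chromosome 1, 186622787 to 186709697) peaked in conflux AE, with 101 CPM in SP3-null and 105 CPM in wild-type. AE had 50.8 and 56.0 CPM when Wnt-low and 77.7 and 84.9 CPM when Wnt-high. VE had 25.5 and 29.5 CPM when Wnt-low and 47.2 and 57.5 CPM when Wnt-high, so that AE exceeded VE by 1.88-fold in SP3-null and 1.77-fold in wild-type. Pre-HE had 61.7 CPM in SP3-null and 26.0 CPM in wild-type. HE followed with 17.9 and 11.6 CPM from 16 and 13 UMIs, and IAC with 1.43 and 3.56 CPM from 5 and 15 UMIs.

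**Figure D3:**
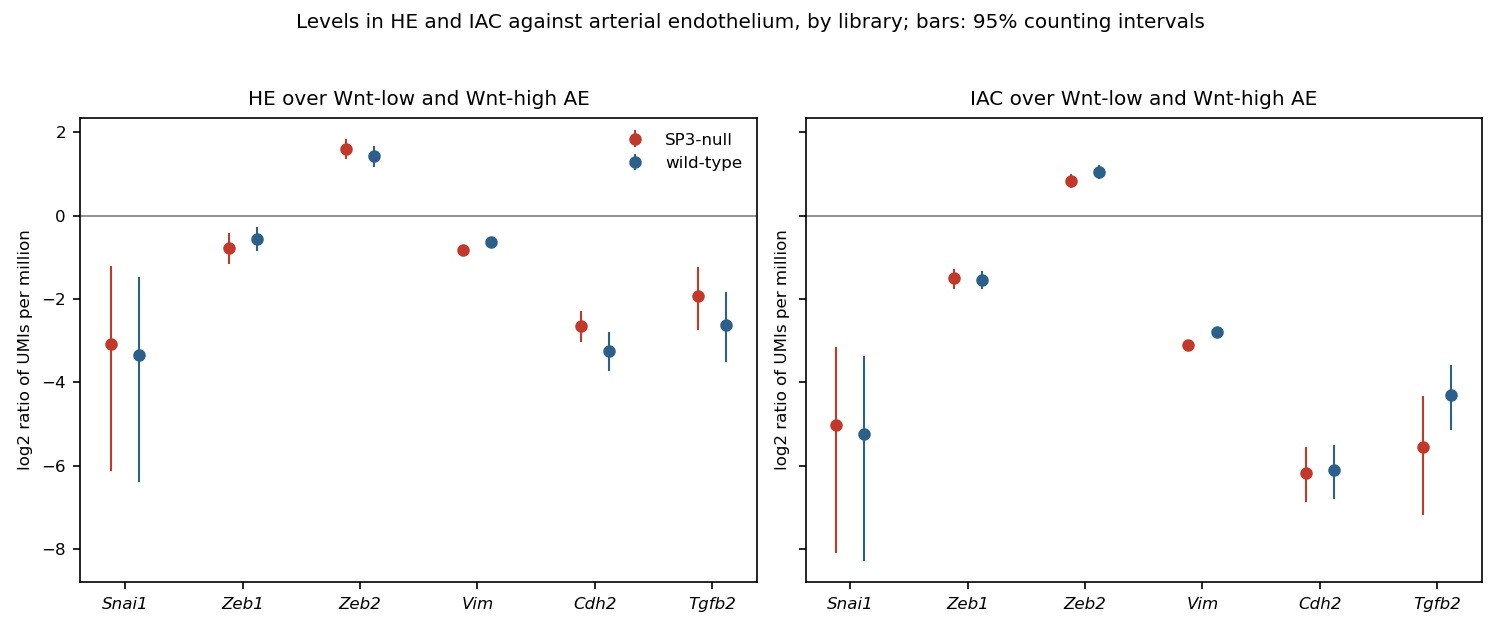
Log2 ratio of HE (left panel) and of IAC (right panel) over Wnt-low and Wnt-high AE for 6 genes, SP3-null to the left of wild-type, with 95% counting intervals. Snai2, with no UMI in SP3-null HE and IAC, and Twist1, with too few, are not drawn. Zeb2 is the gene above 0, at 1.61 and 1.43 in HE and at 0.83 and 1.05 in IAC.

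Set against all genes with at least 50 UMIs, IAC was at least 2-fold lower than AE in both libraries for 15.4% of genes and at least 2-fold higher for 7.87%. Of 7 members tested, 6 were lower, namely Snai1, Snai2, Zeb1, Vim, Cdh2 and Tgfb2, and none was higher. HE was at least 2-fold lower for 7.35% and higher for 4.03% of genes. There Snai1, Snai2, Cdh2 and Tgfb2 were lower, Snai2 by the upper limit of its interval in SP3-null, and Zeb2 was higher.

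Genes of the same pathways were read from lists. The ratio of IAC over AE had a median of log2 0.01 over all genes in each library. The endothelial identity genes were below 0 in 12 of 12 members in each library, with medians of -2.24 in SP3-null and -2.37 in wild-type. Junction partners of Cdh2 were below 0 in 7 of 7 SP3-null and 8 of 8 wild-type members with enough UMIs, Cdh13 having none in SP3-null IAC. They included Ctnna1, the gene of alpha-catenin (-2.19 and -2.21), and Ctnnb1, that of beta-catenin (-0.82 and -0.9). Other EndMT transcription factors were below 0 in 5 of 6 SP3-null and 6 of 7 wild-type members, Sox9 having no UMI in SP3-null IAC. The exception, Mef2c, was at 0.59 and 0.38.

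In HE, the corepressors that SNAI and ZEB factors recruit stood above their AE level in 11 of 11 members in SP3-null and 9 of 11 in wild-type, with medians of log2 0.52 and 0.25. Over all genes 57.1% in SP3-null and 54.1% in wild-type stood above their AE level, with medians of 0.11 and 0.05. Chd4, a remodeler of the NuRD complex, was at 0.87 and 0.59, Ezh2, the methyltransferase of Polycomb complex PRC2, at 0.67 and 0.55, and Rcor1, the CoREST scaffold, at 0.59 and 0.57. Mesenchymal structural genes had medians of 1.18 and 0.63 in HE, above 0 in 6 of 9 and 7 of 9 members, the first of these counts being near the share over all genes. Fn1, the gene of fibronectin, was at 1.18 and 1.73 and the smooth muscle gene Acta2 at 10.64 and 9.24. Acta2 was near the floor in AE, which leaves the size of its ratio uncertain. In SP3-null it had 0.19 CPM in Wnt-low and 0.225 CPM in Wnt-high AE, and in wild-type 0.541 and 0.273 CPM. Sparc, in contrast, was at -1.68 and -1.24 and Nes, an intermediate filament gene, at -0.54 and -1.43. The TGF-beta list had medians of -0.25 in SP3-null and 0.05 in wild-type HE, above 0 in 5 of 14 and 7 of 13 members. Of that list, Ltbp1, which tethers latent TGF-beta to matrix, was at 5.5 and 5.61 in HE, and Eng, an endothelial co-receptor, at -1.06 and -0.8. Ltbp1 was low in the AE classes, between 1.23 and 3.22 CPM, and stood at 92.0 and 91.1 CPM already in pre-HE.

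Between the libraries, Cdh2 had the largest ratio of the 8 members in the summed endothelial classes (AE, VE, conflux AE and pre-HE) as pooled. It had 275 CPM in SP3-null and 210 CPM in wild-type, a log2 ratio of 0.39 (0.35 to 0.43). Of 11814 genes with at least 50 UMIs, 3.89% had a ratio as high or higher. No member of the 8 passed 1.5-fold, which 1.78% of genes passed upward and 3.78% downward. The mix of classes differed with it: 62.3% (59.0% to 65.4%) of SP3-null AE cells were Wnt-high, against 49.7% (46.5% to 53.0%) in wild-type. Of VE cells, 45.6% were Wnt-high in SP3-null and 36.9% in wild-type. When the SP3-null classes were weighted by their wild-type share of UMIs, the log2 ratio was 0.11. With the classes weighted alike it was 0.14, and with each cell weighted alike 0.26. It was then no longer the largest: Snai1 stood at 0.13 and Tgfb2 at -0.13 with the wild-type mix, and Twist1, from 34 SP3-null and 39 wild-type UMIs, at -0.63 with classes and -0.46 with cells weighted alike.

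Within classes, Cdh2 had a ratio above 0 in 9 of 9, with the interval above 0 in 5. At equal depth it was below 0 in 3 of these, conflux AE (-0.10), Wnt-low VE (-0.08) and IAC (-0.71), each with an interval that included 0, and in IAC it was -0.08 without the 3 richest cells. Other endothelium had 101 CPM in SP3-null and 74.9 CPM in wild-type (log2 0.42, 0.35 to 0.5). Wnt-high VE had log2 0.15 (0.08 to 0.22), Wnt-low AE 0.25 (0.07 to 0.43), and Wnt-high AE 0.05, with an interval that reached 0. Pre-HE had 89.8 CPM in SP3-null and 51.4 CPM in wild-type (log2 0.8, 0.34 to 1.27), from 80 and 79 UMIs. At equal depth the pre-HE ratio was 0.42 (-0.36 to 1.19), which includes 0. HE had 69.2 and 36.4 CPM (log2 0.93, 0.33 to 1.53), but 3 of the 40 SP3-null cells held 41 of its 62 UMIs, and without the 3 richest cells of each library the ratio was 0.06 (-0.83 to 0.94). Cdh11, another cadherin gene, which marks mesenchyme, moved with Cdh2 in HE. The 13 mesenchyme markers stood at 44.7 CPM in SP3-null and 14.2 CPM in wild-type HE, and 26 of the 40 SP3-null UMIs were of Cdh11. The part of such cells in the HE ratio was not tested.

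Among classes whose interval excluded 0, the ratio of Tgfb2 was largest in pre-HE. It had 61.7 CPM (46.5 to 80.3) in SP3-null, from 55 UMIs in 29 of 92 cells, and 26.0 CPM (18.6 to 35.4) in wild-type, from 40 UMIs in 25 of 136 cells. The log2 ratio was 1.25 (0.63 to 1.87), 1.35 (0.6 to 2.12) without the 3 richest cells of each library, and 1.41 (0.43 to 2.46) at equal depth. Relative to AE, pre-HE was 1.1-fold lower in SP3-null (log2 -0.13, -0.55 to 0.26) and 2.7-fold lower in wild-type (log2 -1.44, -1.93 to -0.98). In conflux AE, the class before, the libraries lay at 101 and 105 CPM. Elsewhere Tgfb2 ran the other way: its ratio was below 0 in 7 of 9 classes, with the interval below 0 in Wnt-high VE (log2 -0.28, -0.46 to -0.11) and a ratio of -1.31 (-3.12 to 0.22) from 5 and 15 UMIs in IAC, and the sum had 50.4 CPM in SP3-null and 53.2 CPM in wild-type (log2 -0.08, -0.17 to 0.01).

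In pre-HE 4.81% of 5952 genes with at least 50 UMIs were at least 1.5-fold higher in SP3-null and 5.24% at least 1.5-fold lower. Of the 5 members with that many UMIs, Cdh2 and Tgfb2 were higher and none was lower. In HE 5.82% of 5227 genes were higher and 4.52% lower, and of 4 members Cdh2 was higher and none lower. Pre-HE and HE also differed between libraries in marker lists: smooth muscle markers had 196 CPM in SP3-null and 465 CPM in wild-type pre-HE and 598 and 543 CPM in HE. Neural markers, mostly Stmn2 in pre-HE, had 536 and 846 CPM in pre-HE and 451 and 364 CPM in HE, and mesenchyme markers 32.5 and 27.3 CPM in pre-HE. Endocardium and cushion markers, led by Npr3 in pre-HE, were higher in SP3-null pre-HE, at 560 CPM (512 to 611) against 449 CPM (416 to 484) in wild-type, and lower in SP3-null HE, at 233 against 342 CPM. Epithelial markers had 20.2 and 47.5 CPM in pre-HE and 54.7 and 78.2 CPM in HE, and macrophage markers 7.86 and 18.9 CPM in pre-HE. Of the epithelial UMIs, Krt18 held 14 of 18 and 69 of 73 in pre-HE, and 44 of 49 and 84 of 88 in HE. Lyve1 held 6 of 7 and 22 of 29 macrophage UMIs in pre-HE, where C1qa, Csf1r and Tyrobp had none. The part of these marker lists in the member ratios was not tested.

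**Figure D4:**
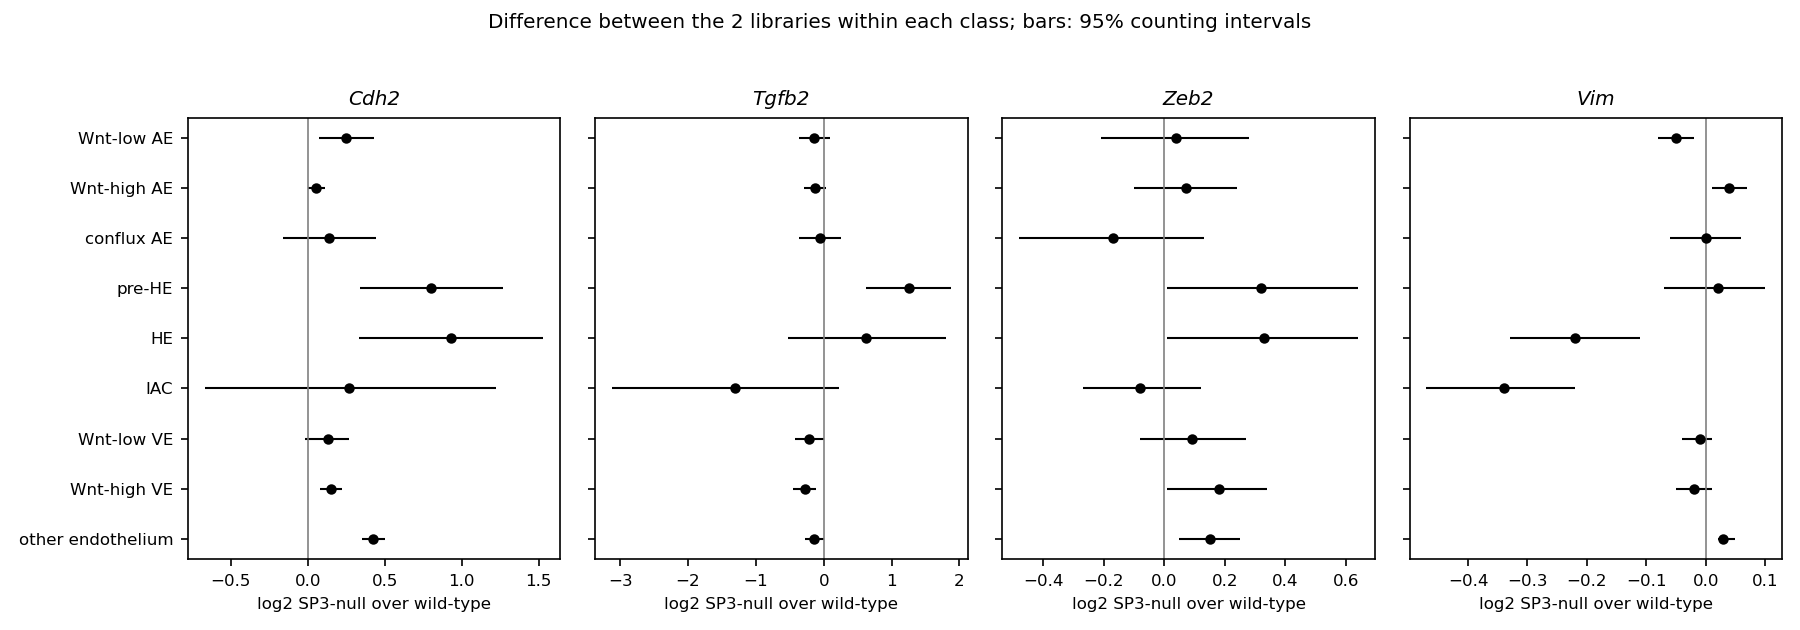
Log2 ratio of SP3-null over wild-type for Cdh2, Tgfb2, Zeb2 and Vim within each of the 9 classes, with 95% counting intervals and a line at 0. The scales differ between panels. Cdh2 is above 0 in each class, Tgfb2 is at 1.25 in pre-HE and below 0 in 7 of 9 classes, and Vim is lowest in IAC, at -0.34.

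Vim differed between the libraries at the hematopoietic end. In HE the log2 ratio was -0.22 (-0.33 to -0.11), and -0.41 (-0.54 to -0.29) without the 3 richest cells of each library. In IAC it was -0.34 (-0.47 to -0.22), -0.39 (-0.52 to -0.25) without the 3 richest cells and -0.6 (-0.92 to -0.28) at equal depth. When IAC was split by macrophage UMIs, the difference lay with the cells that held 2 or more. These had 148 CPM of Vim (131 to 167) in SP3-null and 310 CPM (287 to 334) in wild-type. The other IAC cells had 376 CPM (347 to 406) and 354 CPM (328 to 381). When IAC was split by Cdh5, Vim was lower in SP3-null in both parts. Cells with a Cdh5 UMI had 322 CPM (301 to 345) against 385 CPM (364 to 408) in wild-type. Cells without one had 95.1 CPM (76.5 to 117) against 174 CPM (150 to 201). In the other 7 classes the ratio lay between -0.05 and 0.04.

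Zeb2 was higher in SP3-null by less than its change between classes. The sum had 61.3 CPM in SP3-null and 56.4 CPM in wild-type (log2 0.12, 0.04 to 0.2). The ratio was above 0 in 7 of 9 classes, with the interval above 0 in 4: pre-HE (log2 0.32, 0.01 to 0.64), HE (0.33, 0.01 to 0.64), Wnt-high VE (0.18, 0.01 to 0.34) and other endothelium (0.15, 0.05 to 0.25). In pre-HE the interval included 0 without the 3 richest cells (0.26, -0.09 to 0.59). At equal depth all 4 intervals included 0, while that of the sum did not (0.18, 0.02 to 0.34). The share of Wnt-high cells in that sum differed between the libraries. Before thinning, AE as pooled had 0.14, but Wnt-low AE had 0.04 and Wnt-high AE 0.07, both with intervals that included 0. VE as pooled had 0.22, against 0.09 (-0.08 to 0.27) in Wnt-low VE and 0.18 in Wnt-high VE. Zeb1 was lower in Wnt-high AE, at 120 CPM in SP3-null and 136 CPM in wild-type (log2 -0.18, -0.31 to -0.05), and in the sum (log2 -0.07, -0.12 to -0.01). Snai1 had a ratio above 0 in 9 of 9 classes but no interval that excluded 0. At equal depth its ratio was below 0 in Wnt-high AE (-0.35), conflux AE (-1.18), pre-HE (-1.54) and other endothelium (-0.04), and the interval excluded 0 in Wnt-high VE (0.78, 0.06 to 1.55). Snai1 had 18 CPM in SP3-null against 16.4 CPM in wild-type in the sum (log2 0.13, -0.02 to 0.29). Snai2 stood at 11.1 CPM in both sums and Twist1 at 0.862 and 0.927 CPM.

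Between the libraries, each pathway list had a median ratio slightly below that of all genes and a smaller share above 0. These small differences were not tested. Over all 11814 genes the median log2 ratio in the sum was -0.02 with 43.2% above 0. The EndMT factors outside the 8 genes had a median of -0.06, with 2 of 8 members above 0. The TGF-beta ligands, receptors and SMADs had -0.04, with 6 of 16. The mesenchymal structural genes had -0.05 (4 of 11), the endothelial identity genes -0.04 (4 of 12), the junction partners -0.03 (3 of 8), the intermediate filaments and linkers -0.04 (2 of 7) and the corepressors -0.06 (2 of 11).

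Single genes in these lists went further. Among EndMT factors Sox9, a factor of cushion mesenchyme, was highest in SP3-null, at 10.9 CPM against 5.68 CPM in wild-type (log2 0.94, 0.71 to 1.17), and Msx1 was lowest, at 6.87 against 10.8 CPM (-0.65, -0.88 to -0.43). The most abundant of that list, Tcf4, Mef2c and Tcf3, lay between -0.07 and -0.03. In the TGF-beta list Ltbp1 was lowest, at -0.44 (-0.73 to -0.16). The most abundant genes of that list, Eng, Skil and Smad4, were at 0.10, -0.01 and -0.03. Among mesenchymal structural genes Fn1 had 0.33 (0.3 to 0.37), Lgals1, the gene of galectin-1, 0.45 (0.4 to 0.5), Col3a1 0.94 (0.32 to 1.58) and Acta2 -2.95 (-3.42 to -2.5), from 46 SP3-null and 379 wild-type UMIs. Of those 379, 357 were in pre-HE, where Acta2 had 35.9 CPM in SP3-null and 232 CPM in wild-type, whereas in HE it had 337 and 247 CPM. Sparc was at -0.05. The catenin genes Ctnnb1, Ctnna1 and Ctnnd1 lay between -0.09 and 0.00. Among the cadherins, Cdh5 had -0.06 (-0.08 to -0.04) and Cdh11 0.55 (0.15 to 0.94). Synm had 0.63 (0.31 to 0.95) and Krt18, a keratin gene, -1.91 (-2.71 to -1.17), while Nes was at -0.04, Lmnb1 at -0.02 and Plec at -0.29. The corepressors lay closer together, with Rcor1 highest at 0.09, Sin3a lowest at -0.14, and Kdm1a, Chd4 and Ezh2 at 0.01, -0.03 and -0.08. Kdr, Flt1, Emcn and Erg lay between -0.18 and 0.20. All these ratios are of sums in which the mix of classes differed, with more Wnt-high cells in SP3-null. Cdh11, Sox9 and Synm were highest of the summed classes in Wnt-high AE. There Cdh11 had 9.12 CPM in SP3-null and 7.78 CPM in wild-type, Sox9 32.7 and 24.7 CPM, and Synm 15.3 and 10.5 CPM. The part of the mix in their ratios was not tested.

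Likeness of pattern was measured by Pearson's correlation of log2(CPM + 1) over the 18 sums of 9 classes in 2 libraries, among 10986 genes with at least 200 UMIs. The points share libraries, depth and the class assignment, and the values are a description. Vim was most like Crip2 (0.994), Pea15a (0.99) and Ehd2 (0.987). Cdh2 was most like Serp2 (0.96) and Mef2a (0.95), Tgfb2 like Fam13c (0.978), Pdia6 (0.97) and Srgap2 (0.97), and Zeb2 like Rps6ka5 (0.967), Sptssa (0.958) and Ocln (0.957), the gene of occludin. Zeb1 was most like N4bp3 (0.972), Nras (0.968) and Fermt2 (0.967), Snai1 like Trib1 (0.981), Map4k5 (0.981) and Cdc42 (0.972), and Snai2 like Pop4 (0.959), Sh3bgrl2 (0.947) and Flt4 (0.945). Twist1, with few UMIs, reached 0.869 with Rhobtb3, 0.856 with Vldlr and 0.847 with Snap25. Among the 8 genes themselves Vim and Zeb1 had 0.95, Vim and Tgfb2 0.92, and Snai1 and Snai2 0.91, whereas Zeb2 was at -0.75 with Snai1 and at -0.51 with Zeb1.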

How the data were processed

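The members and the lists of related genes were chosen with earlier results of these data known. The authors aligned reads to mm10 (GRCm38) with Cell Ranger (no version is given in the sources used here), removed barcodes under 1000 UMIs or 1000 genes and contaminants such as erythroid progenitors, and classed each cell by its 3 nearest reference cells. The deposited matrix holds raw UMI counts. The authors' cell table gives library, class, total count and mitochondrial fraction, and 2 other columns were not used. Doublets were not scored and remained.

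UMIs were summed per class and library and scaled to CPM. Reads come from the 3' end, so genes are not compared with each other by length. Intervals at 95% were exact Poisson for levels, exact conditional for ratios and Clopper-Pearson for shares. Only the ratio intervals were run on simulated data. These were independent Poisson counts, the model the intervals assume, with no clustering of UMIs by cell. UMIs of 1 cell are not independent, so intervals are too narrow where few cells hold many. At equal depth each cell was thinned to 5000 UMIs and shallower cells were left out (2076 of 2401 SP3-null and 2175 of 2639 wild-type summed endothelial cells kept). Lists were read over members with at least 50 UMIs. Named were all members, per list the 3 genes with the most UMIs and the highest and lowest ratio between libraries, and the 3 genes most alike in pattern. Of these, 2 genes are not reported here. Other list genes were named after their values were seen. Alternatives used edgeR 4.0.16, DESeq2 1.42.0, other weights, sets of cells and minimums. The wild-type mix, cells without mesenchyme UMIs and the IAC splits were chosen after seeing the data. Python 3.11.15, numpy 2.4.6, scipy 1.17.1, pandas 2.3.3, matplotlib 3.10.9 and R 4.3.3 were used. Sequences and coordinates are from RefSeq (GRCm38.p6), where 8 of 8 genes were found by symbol.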

Additional observations from a re-analysis of the deposited data

How the results depend on the processing

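No paired analysis was possible because each genotype had 1 library. TMM and DESeq2 size factors moved all log2 ratios between the libraries by 0.02. Of 128 such ratios under an alternative, 109 moved by less than their counting interval, and 19 moved further. For Zeb1 in the summed endothelial classes the ratio was -0.14 in AE alone and -0.15 at equal depth. For Zeb2 it was 0.22 in VE alone, a pool of Wnt-low VE at 0.09 and Wnt-high VE at 0.18. For Vim it was -0.01 with TMM or DESeq2 factors, with the wild-type mix of classes and without cells with 2 or more UMIs of other cell type markers, and 0.00 with cells or classes weighted alike, with other endothelium added and over all cells. For Cdh2 it was 0.26 with cells weighted alike, 0.14 with classes weighted alike, 0.11 with the wild-type mix, 0.44 over all cells, 0.33 in AE alone, 0.45 in cells under 10% mitochondrial and 0.20 without cells with other markers. For Tgfb2 it was 0.02 with classes weighted alike, against -0.08.

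Of 87 ratios to AE, 56 stayed inside their interval, 30 moved and 1 changed sign: Twist1 in SP3-null IAC was at -1.10 without the 3 richest cells, which hold most of its 8 UMIs. With cells weighted alike, SP3-null Zeb2 was at 1.36 in HE and 0.65 in IAC, and Vim at -0.64 in SP3-null and -0.30 in wild-type HE, and at -2.95 in SP3-null and -2.64 in wild-type IAC. At equal depth wild-type Zeb1 was at -1.0 in HE and -1.82 in IAC, wild-type Zeb2 at 1.27 in IAC, and Vim at -0.57 in SP3-null HE, -0.33 in wild-type HE and -2.59 in wild-type IAC. Without the 3 richest cells Vim was at -1.05 in SP3-null HE, and at -3.32 in SP3-null and -2.96 in wild-type IAC. Without IAC cells with 2 or more macrophage UMIs, Vim was at -2.57 in SP3-null and -2.69 in wild-type, and Zeb2 at 0.86 in wild-type. The causes of these changes were not tested. The 18 Zeb2 shares all stayed inside their intervals. The 14 list medians each moved by no more than the standard deviation of the ratios in their list, which is a loose limit. Of 144 shares of cells with a UMI, 119 moved beyond their interval when cells were thinned. HE and IAC held 2 Snai1 UMIs per library in each, at which no difference between the libraries was detectable, although their cells were deeper than those of pre-HE.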
